A study of Bos taurus with 20 samples.

Results

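LGALS9 encodes galectin-9 and LGALS3BP encodes galectin-3-binding protein, and each was measured by 1 spotted cDNA clone in the endometrium of heifers on day 18 after estrus. The members are the clones of the 18KB array whose only gene symbol in the array's probe-to-gene table is LGALS9 or LGALS3BP, which gave 2 of the 1536 clones on that array. The 18KO array, the other array of the study, holds 0 clones with either name in its table. Both symbols matched the RefSeq gene table of the bovine assembly by gene identifier. The animals were Simmental heifers aged 17 to 22 months whose cycles had been synchronised with a single injection of 500 µg cloprostenol, an analogue of prostaglandin F. The 4 pregnant heifers had been inseminated with frozen-thawed sperm of one bull and carried an intact conceptus, which was removed before sampling. The 6 control heifers had received only the supernatant of centrifuged sperm, and no conceptus was found in them on day 18 of the cycle. Intercaruncular endometrium of the caudal uterine horn, on the ipsilateral side, was taken from every animal, and a phosphorus-33 labelled probe made from the RNA of each animal was hybridised to both arrays. The 18KB array carries a cDNA library that was subtracted to enrich transcripts more abundant in pregnant animals.

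Galectins are lectins that bind beta-galactosides on the glycans of cell surface and matrix proteins. Galectin-9 is of the tandem-repeat type, with a pair of carbohydrate recognition domains joined by a linker, is secreted without a signal peptide, and is known as a ligand of the T cell receptor TIM-3 and as a regulator of lymphocytes, including those of the uterus. Galectin-3-binding protein is a heavily glycosylated secreted protein with a scavenger receptor cysteine-rich domain. It carries glycans that galectins bind and also attaches to collagens, fibronectin and integrins. Both genes are known to be induced by interferons, and the bovine conceptus secretes interferon tau, the signal of pregnancy recognition, before it attaches.

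Both transcripts were more abundant in pregnant endometrium. LGALS9 rose 3.84-fold and LGALS3BP rose 3.05-fold, and on the deposited intensity scale the lowest pregnant animal lay above the highest control for each gene. Both sizes moved with the scaling: after column medians were made equal, the log2 fold changes were 1.11 for LGALS9 and 0.78 for LGALS3BP, against 1.94 and 1.61 as deposited, and LGALS3BP no longer passed the threshold of 0.01 (limma adjusted p = 0.0319). The separation was narrow, with the lowest pregnant value 1.38 times the highest control value for LGALS9 and 1.24 times for LGALS3BP. Pregnant animals also lay above all controls in 22.3% of all 1420 features (named genes and other single clones) and in 75.6% of the named genes.

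LGALS9 had spot intensities of 12.76 in pregnant 316, 24.92 in pregnant 426, 16.63 in pregnant 447 and 13.19 in pregnant 448. Across the 6 controls the lowest intensity was 2.78 (control 440), the median 3.84 and the highest 9.28 (control 427). Control 427 lay apart from the other controls, which did not exceed 4.60, and no pregnant animal fell into the control range. The mean log2 intensity was 4.02 ± 0.44 (SD, n = 4) in pregnant and 2.08 ± 0.61 (SD, n = 6) in control animals. The log2 fold change was 1.94 ± 0.32 (SE; 95% interval 1.23 to 2.65; limma adjusted p = 0.000874). Leaving out any 1 animal gave values from 1.74 to 2.17, and the largest was obtained without control 427.

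LGALS3BP had spot intensities of 6.71 in pregnant 316, 15.47 in pregnant 426, 17.48 in pregnant 447 and 9.51 in pregnant 448. The controls ranged from 2.48 (control 330) through a median of 3.89 to 5.43 (control 440). No control reached the lowest pregnant animal, 316. The pregnant animals spread more widely for this gene, with a highest to lowest ratio of 2.61 against 1.95 for LGALS9, whereas the controls were closer together, with ratios of 2.19 and 3.34. The mean log2 intensity was 3.52 ± 0.64 (SD, n = 4) in pregnant and 1.91 ± 0.46 (SD, n = 6) in control animals. The log2 fold change was 1.61 ± 0.31 (SE; 95% interval 0.92 to 2.29; limma adjusted p = 0.00235). Without pregnant 426 the adjusted p was 0.0105, just outside the threshold of 0.01, at a log2 fold change of 1.46, and over all single omissions the value ran from 1.40 to 1.86.

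**Figure D1:**
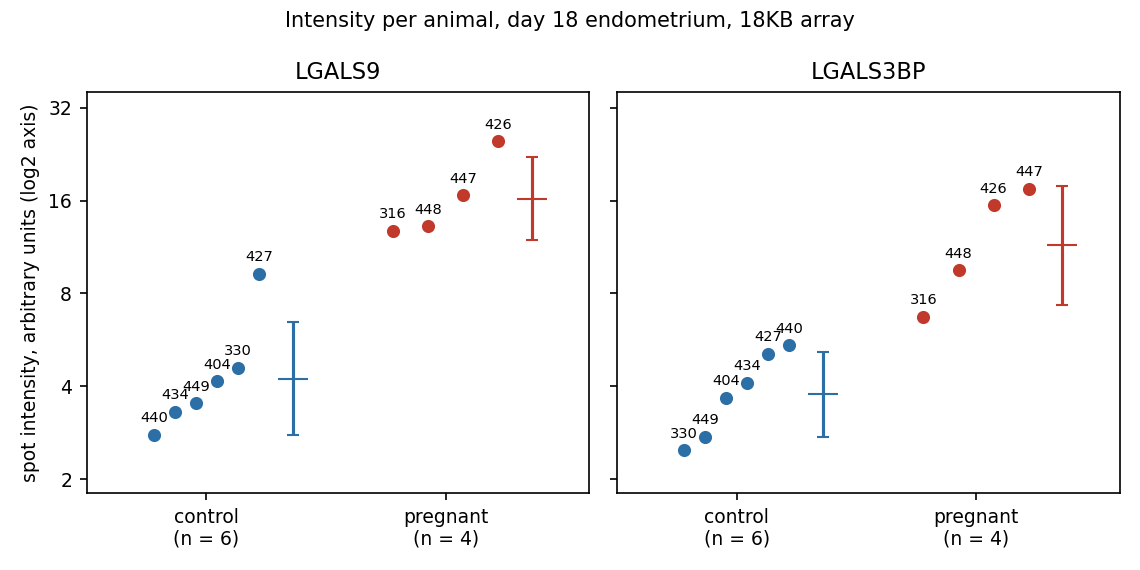
Spot intensity of LGALS9 (left) and LGALS3BP (right) in each animal on a log2 axis, with animal numbers beside the points and, at the right of each group, the mean and SD of the log2 values drawn on the intensity axis. On this deposited scale all 4 pregnant animals lie above all 6 controls for both genes, as in 22.3% of all 1420 features. Control 427 is the highest control for LGALS9 at 9.28. After equal column medians or quantile normalization (not drawn) the groups overlapped for both genes.

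A feature was called when its limma adjusted p was below 0.01 and it differed 2-fold or more, the thresholds that the study gave for its own test. In the table of 1420 features that holds each named gene as 1 entry and every other clone singly, 15.6% were called higher in pregnant animals and 0.634% lower. This split depended on the scaling, with 82 features called higher and 172 lower after column medians were set equal, and 102 and 137 after quantile normalization. Taken clone by clone, 20.5% of the 1536 were called higher and 0.716% lower, and of the 1334 without a single symbol 11.6% were called higher. Among the 86 named genes 77.9% were called higher. The study sequenced chiefly clones that differed between these same animals, so the presence of both genes among the named ones is not independent evidence of their direction. Groups that did not overlap, with pregnant animals higher, were found in 22.3% of the 1420 features and in 75.6% of the named genes. By size of the rise LGALS9 stood at rank 95 and LGALS3BP at rank 148 of the 1420 features, and at ranks 39 and 55 of the 86 named genes. Among the named genes both stood near the middle of the order, and both rose by more than the median clone, whose log2 fold change was 0.44.

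That median shift bears on the size of both changes. The 18KB library was subtracted to enrich transcripts more abundant in pregnant animals. On such an array, a shift in RNA and a shift in scaling cannot be told apart. Equal column medians and quantile normalization remove both. The column medians of the 18KB array ran from 2.50 to 3.18 in pregnant animals and from 1.39 to 1.90 in controls, whereas those of the 18KO array overlapped, at 1.67 to 2.36 and 2.03 to 3.90. With all column medians set equal, the log2 fold change of LGALS9 was 1.11 ± 0.26 (limma adjusted p = 0.00433) and still called, whereas that of LGALS3BP was 0.78 ± 0.27 (limma adjusted p = 0.0319) and not called. Quantile normalization gave 1.18 ± 0.31 (limma adjusted p = 0.00901) and 0.81 ± 0.32 (limma adjusted p = 0.0532). A single factor per animal from both of its arrays gave 1.69 ± 0.32 and 1.36 ± 0.32, both called. Relative to the median clone, LGALS9 was higher by 1.50 and LGALS3BP by 1.17 on the log2 scale as deposited. Equal column medians and the single factor per animal gave the same values by construction, as a factor per column shifts all clones alike. After quantile normalization the values were 1.44 and 1.07. After equal medians or quantile normalization the pregnant and control values of both genes overlapped, and with 1 factor per animal those of LGALS3BP did. With equal medians control 427 exceeded pregnant 448 in LGALS9 by less than the rounding of their log2 values, 3.13 in each, and control 440 exceeded pregnant 316 in LGALS3BP, at 2.74 and 2.27.

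**Figure D2:**
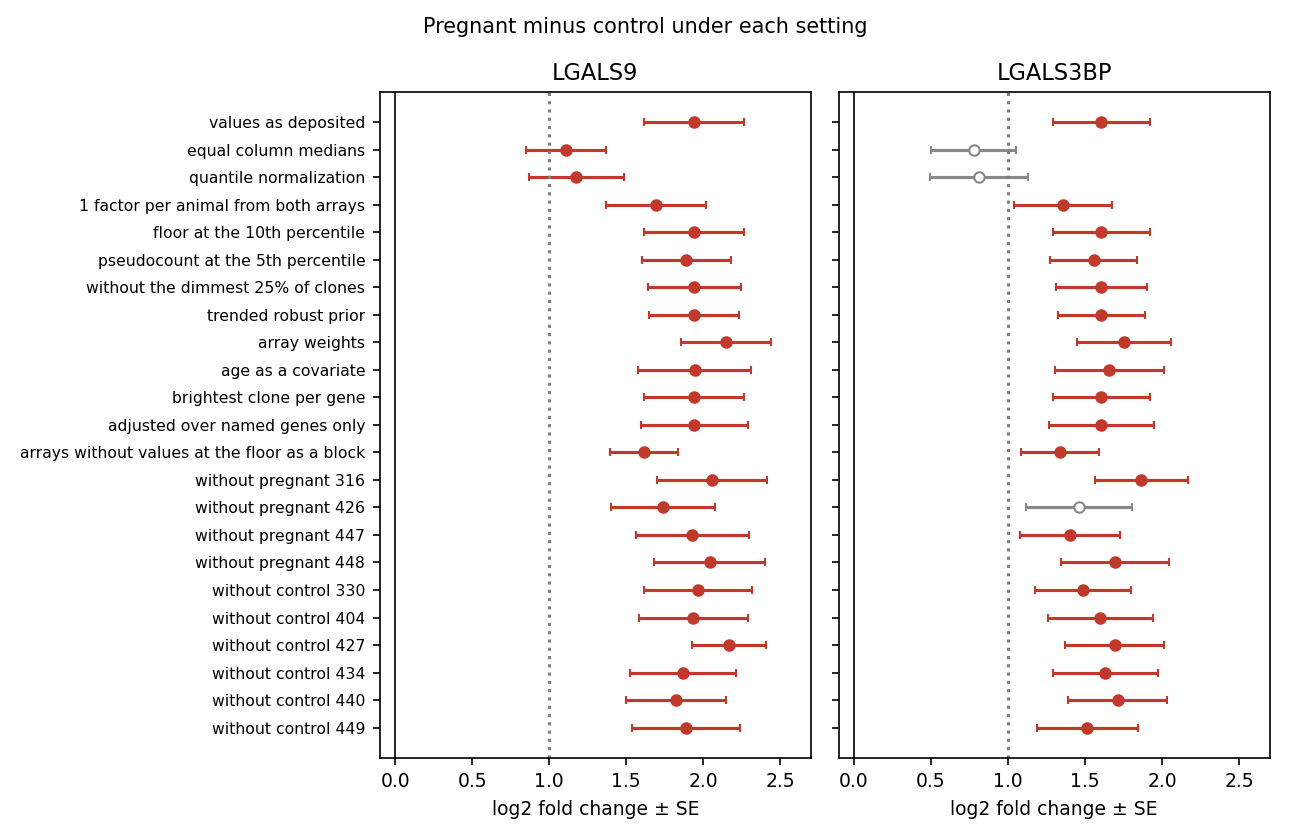
Log2 fold change, pregnant minus control, with its SE for LGALS9 (left) and LGALS3BP (right) as deposited and under each alternative setting; filled red points passed both thresholds, open grey points did not, and the dotted line marks a 2-fold change. LGALS9 passed under each setting drawn, while LGALS3BP missed with equal column medians (0.78), after quantile normalization (0.81) and without pregnant 426 (1.46).

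The rise of LGALS9 was compared with that of LGALS3BP within each animal, a difference that any common scaling of a column leaves as it is. The log2 difference, LGALS9 minus LGALS3BP, was 0.93 in pregnant 316, 0.69 in pregnant 426, -0.07 in pregnant 447 and 0.47 in pregnant 448. In controls it ran from -0.97 in control 440 to 0.89 in control 330, a range that holds 3 of the pregnant values and ends just under the fourth. The groups differed by 0.33 (95% interval -0.57 to 1.33; two-sided exact permutation p = 0.433 over 210 splits). A difference between the rises of the genes was therefore not detectable with 10 animals, and the interval does not show that they rose alike.

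The animals were ordered differently by the 2 genes. Among pregnant animals 426 was highest for LGALS9 and 447 for LGALS3BP, while 316 was lowest for both. Control 440 was the lowest control for LGALS9 and the highest for LGALS3BP, and control 330 was the second highest for LGALS9 and the lowest for LGALS3BP. Control 427 was high for both, at 9.28 and 5.09.

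To find the named genes whose pattern was most like each member, every gene was centred on its own mean over the 10 animals, and the root mean square difference of the log2 values was taken over these animals, out of 85 other genes. The gene nearest to LGALS9 was PSMF1, an inhibitor of the proteasome, at 0.24, followed by OAS1Z, of the oligoadenylate synthetase family, at 0.25, the RNA helicase DHX58 at 0.28, the ADP-ribosyltransferase family member PARP9 at 0.30 and the zinc finger protein ZNFX1 at 0.31. LGALS3BP had no gene as near. Its nearest were SERPING1, which encodes the C1 inhibitor of complement, at 0.36, CD74, the chaperone of class II antigen-presenting molecules, at 0.38, the proteoglycan AGRN and the peptide transporter subunit TAP1, both at 0.39, and DHX58 at 0.39. The median difference to all 85 genes was 0.64 for LGALS9 and 0.70 for LGALS3BP. The members lay 0.58 from each other, which put LGALS3BP at place 30 in the order for LGALS9, and LGALS9 at place 27 in that for LGALS3BP. These differences describe the same animals that gave the fold changes and carry no test. The centred values were not scaled, so the differences take in the size of a gene's rise as well as its order of animals.

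**Figure D3:**
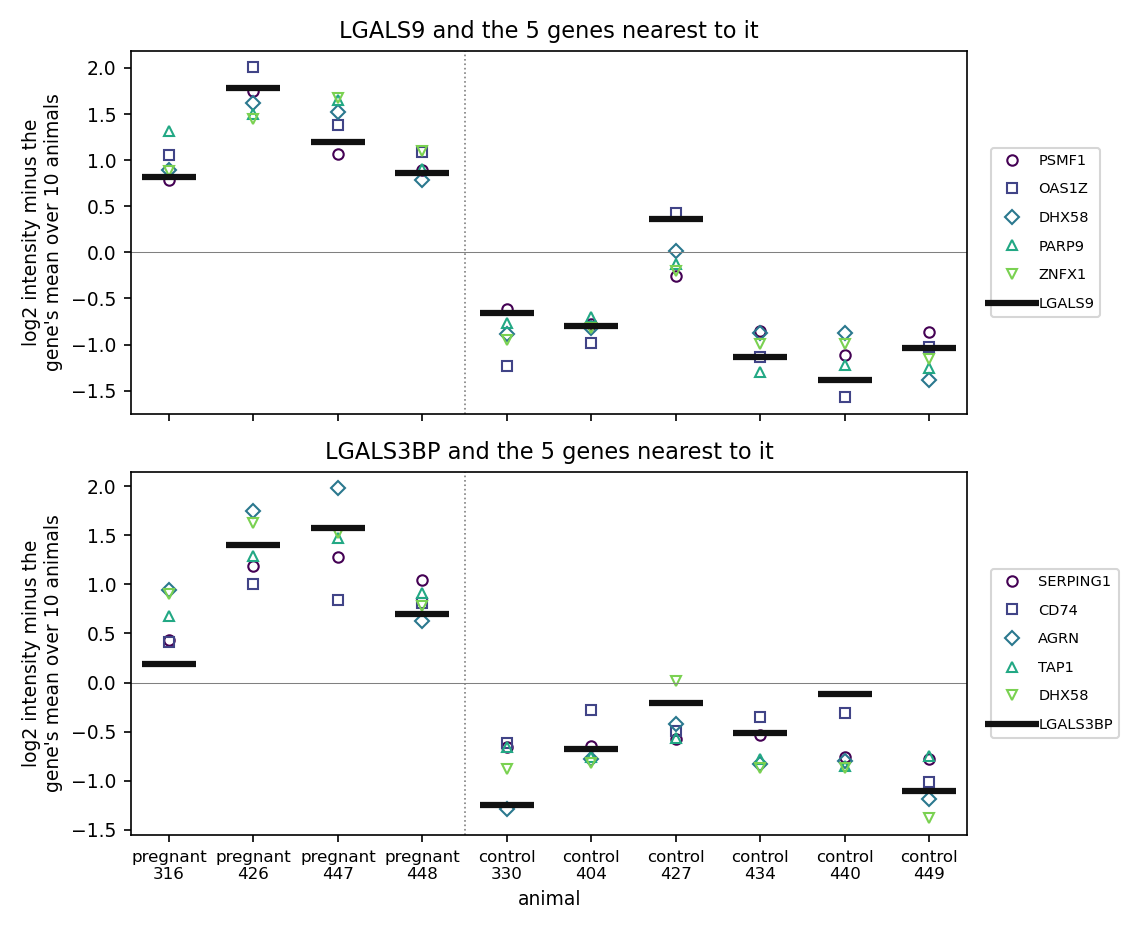
Log2 intensity of LGALS9 (top, bars) and LGALS3BP (bottom, bars) in each of the 10 animals with the 5 named genes nearest to each (symbols), every gene centred on its own mean over the animals. The genes nearest to LGALS9 lie at root mean square differences of 0.24 to 0.31. In control 427 LGALS9 (0.36) is higher than PSMF1, DHX58, PARP9 and ZNFX1 but not OAS1Z (0.43). LGALS3BP departs more from its neighbours (0.36 to 0.39), being higher than them in control 440 and lower in pregnant 316.

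Of a list of 76 interferon-stimulated genes, 30 are named on the 18KB array, LGALS9 and LGALS3BP included. All 30 were called higher, with a median log2 fold change of 2.37 and a range from 1.11 to 4.85, against 77.9% called higher among all named genes. The 4 with the smallest p were IFI6, a mitochondrial protein, PARP12, an ADP-ribosyltransferase, the ubiquitin-like ISG15, and UBA7, the enzyme that activates it, with log2 fold changes of 2.44, 2.80, 4.85 and 4.20. All 30 lay above 0 under each scaling tried, but 22 were called with equal column medians, 24 after quantile normalization and 29 with 1 factor per animal. In the same order 82, 102 and 151 of all 1420 features were called higher. The median clone was then at -0.39, -0.26 and 0.19. The share of named genes called under these scalings was not taken, so these counts cannot be set against the 77.9% as deposited. The share of all features above 0 was not taken either. Apart from the members, 20 of the 28 other genes had a larger fold change than LGALS9 and 26 a larger one than LGALS3BP.

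Both members rose less than the mean of these 28 genes. Their mean log2 fold change was 2.54. The 28 are named genes, and the study sequenced chiefly clones that differed between these same animals. Their mean is therefore that of a selected set, not of interferon-stimulated genes at large. The comparison was also added after the values had been seen, which limits what its p-values mean. That of LGALS9 differed from it by -0.60 (LGALS9 minus the mean; 95% interval -0.98 to -0.22; two-sided exact permutation p = 0.0143, adjusted over both members 0.0143). For LGALS3BP the difference was -0.94 (95% interval -1.62 to -0.25; two-sided exact permutation p = 0.00952, adjusted 0.0143). The log2 value of LGALS3BP, less that of the 28 genes together, was 0.87 ± 0.30 (SD, n = 4) in pregnant and 1.81 ± 0.50 (SD, n = 6) in control animals, and every pregnant animal lay under every control. For LGALS9 these values were 1.38 ± 0.31 and 1.98 ± 0.22, with an overlap between pregnant animals, up to 1.76, and controls, from 1.63. Both differences shrank when dim spots were treated otherwise. With a pseudocount at the 5th percentile of all values in place of the floor, that of LGALS9 was -0.33 (exact permutation p = 0.105), no longer past 0.05. That of LGALS3BP was then -0.66 (exact permutation p = 0.0286). With a floor at the 10th percentile they were -0.44 and -0.78 (exact permutation p = 0.0429 and 0.00952).

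**Figure D4:**
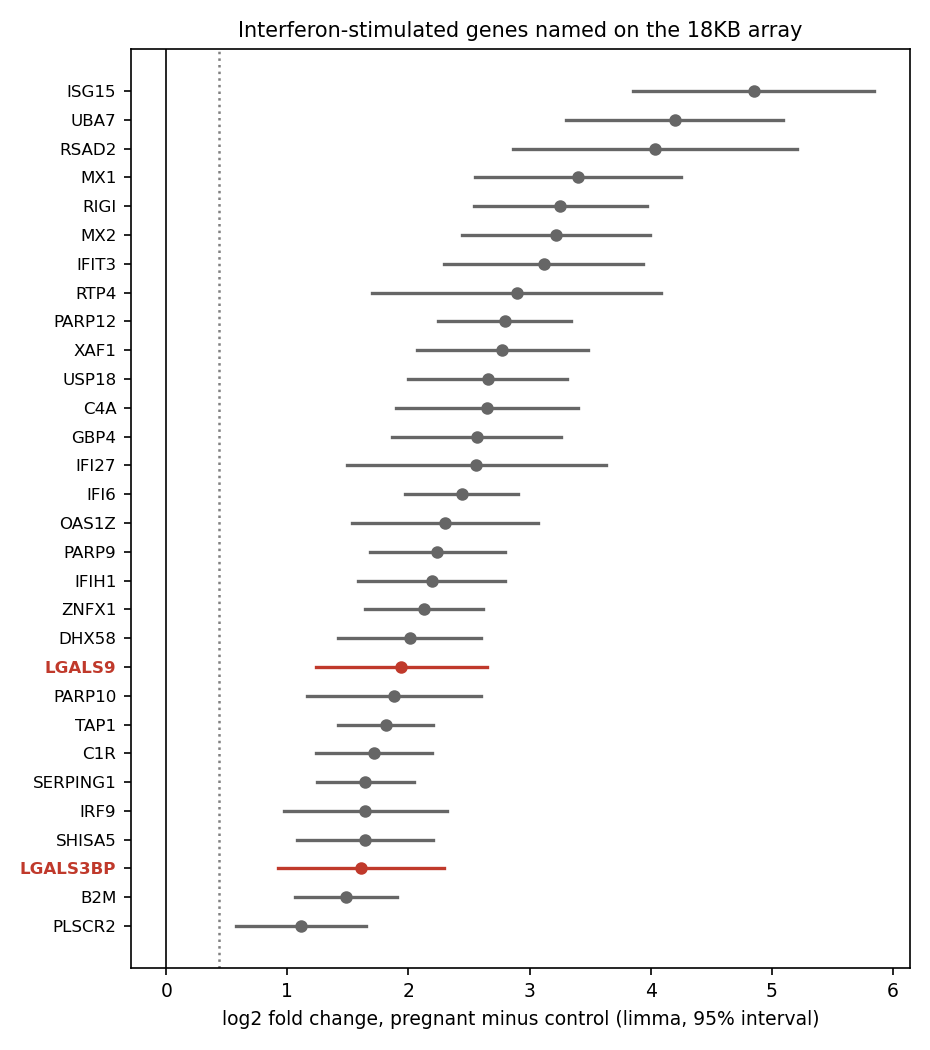
Log2 fold change, pregnant minus control, with its 95% interval from limma for the 30 interferon-stimulated genes named on the 18KB array, in order of size, LGALS9 and LGALS3BP in red. The solid line marks no change and the dotted line the median of all clones at 0.44; all 30 genes lie above it, with LGALS9 at 1.94 and LGALS3BP at 1.61 in the lower part of the order.

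The level of the 28 genes, as their mean log2 intensity, varied among animals of a group as well. In pregnant animals it was 2.31 in 316, 2.88 in 426, 3.07 in 447 and 2.33 in 448, so the pair of animals with the higher mean was also the pair with the higher LGALS9 and the higher LGALS3BP. In controls it was 1.04 in control 427 and between -0.27 and 0.10 in the others. Control 427 was thus highest both in this mean and in LGALS9, whereas control 440, the highest control in LGALS3BP, had a mean of -0.15. These are intensities as deposited. The column medians were also highest in 426 and 447 among pregnant animals (3.045 and 3.18) and in 427 among controls (1.9). The part of column scaling in this shared order of animals was not tested.

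The arrays of pregnant 426, pregnant 447 and control 427 also shared a feature of the deposited values. They held 0 intensities at or below 0.01, where the other 7 arrays held 9 to 16. Within these 3 arrays the log2 difference between pregnant and control was 1.13 for LGALS9 and 1.69 for LGALS3BP, with a single control. Within the other 7 arrays, 2 pregnant and 5 control, it was 1.84 and 1.17, and the pregnant values lay above the controls for both genes. The share of all features that separate in this way within these 7 arrays was not taken. Over all animals 22.3% of the 1420 features did so, and smaller groups separate more readily. With the array sets as a block the log2 fold changes were 1.62 ± 0.22 (limma adjusted p = 0.000239) and 1.34 ± 0.25 (limma adjusted p = 0.00204).

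Of 15 galectin genes in the list, LGALS9 was the only one named on the 18KB array, and none was named on the 18KO array. None of 14 receptors and ligands of galectin-9, among them HAVCR2, which encodes TIM-3, and CD44, was named on either array. Of 17 partners of galectin-3-binding protein, 2 were named on the 18KB array and 4 on the 18KO array. COL6A1 and COL6A2, chains of collagen VI, fell on the 18KB array by 1.26 ± 0.29 and 1.01 ± 0.25 on the log2 scale (limma adjusted p = 0.00583 and 0.00848). On that array 10.5% of named genes and 0.634% of all 1420 features were called lower. On the 18KO array COL6A3 (-2.44 ± 0.42) and the basement membrane collagen COL4A2 (-1.79 ± 0.28) fell. There 3.86% of all 1475 features, named or not, were called lower, and the share among its named genes was not taken. COL6A1 (-1.11 ± 0.29, limma adjusted p = 0.0238) and FN1, fibronectin (-1.35 ± 0.36, limma adjusted p = 0.0257), were not called there as deposited. They were not called with equal column medians (-0.78 and -1.02) or after quantile normalization (-0.81 and -1.02) either, and were called with 1 factor per animal. All 6 entries stayed under 0 with each scaling. Protein levels were not measured.

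Markers of other cells were examined beside the members. In bulk tissue, a change in the number of cells of a type and a change in RNA per cell cannot be told apart. Of 7 stroma markers, 3 were named on the 18KB array (COL1A1, COL1A2 and COL3A1) and all 3 fell. On that array 10.5% of named genes and 0.634% of all 1420 features were called lower. The summed intensity of the 3 was 107 to 436 in pregnant animals and 622 to 1415 in controls. Of 10 trophoblast markers, 3 were named (IFNT2, TKDP1 and TKDP4), with a summed intensity of 1.44 to 41.7 in pregnant animals and 0.955 to 1.79 in controls. IFNT2 and TKDP1 were called higher as deposited, where 77.9% of named genes were, and TKDP4 was not. None of the 3 was called under the other scalings. The trophoblast sum was 1.44 in pregnant 316, inside the control range, 8.05 in 426, 4.30 in 447 and 41.7 in 448. In the same order the LGALS9 intensities were 12.76, 24.92, 16.63 and 13.19, and the LGALS3BP intensities 6.71, 15.47, 17.48 and 9.51. Of 6 epithelial markers the 1 named was CLDN4 on the 18KO array. Its log2 fold change was 1.96 ± 0.58 (limma adjusted p = 0.0384), not called, but called at 2.29 with equal column medians. Both named smooth muscle markers, ACTA2 and MYLK, fell on that array (-1.41 and -1.58), where 3.86% of all 1475 features were called lower. No marker of endothelium, of macrophages or of T and NK cells was named on either array, so the leukocytes in which galectin-9 is often studied could not be followed here. The part of these cell types in the rise of LGALS9 and LGALS3BP was not tested.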

How the data were processed

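The authors deposited 1 linear spot intensity per clone for 10 animals on 2 arrays; their background subtraction and scaling are not given in the sources used here. Per the labels, the 18KO array of pregnant 316 was hybridised again and placed by ratios; that array enters only the values named 18KO and the factor per animal. Intensities under 0.01 were set to that floor, and log2 was taken; all LGALS9 and LGALS3BP values lay above the 10th percentile of the 18KB array (0.32). Log2 columns of a group correlated at 0.935 to 0.982. Clones of a gene were averaged (202 clones, 86 genes), and the other clones, 1325 without a name and 9 with several symbols, stayed single, as naming followed the outcome. Pregnant and control animals were compared with lmFit and eBayes of limma 3.58.1 in R 4.3.3, checked on simulated data, with Benjamini-Hochberg adjustment over all 1420 features. Single values per animal were compared by exact permutation over 210 splits, where 0.00476 is the smallest p possible. Their intervals hold the shifts that this test does not reject at 0.05.

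The rule for named genes was both members, the 5 genes nearest to each, and up to 4 genes of each list with the smallest p. Members and lists were chosen with earlier results of these data known, and the comparison with the 28 other interferon-stimulated genes was added after seeing the values; marker genes are named beyond the rule. Each member rests on 1 clone, and cross-hybridisation of spotted cDNA with related transcripts was not tested. The sequences of the clones, and genome positions, are not used here. Alternatives were 3 scalings, a pseudocount at the 5th percentile (0.20) or a floor at the 10th, a fit without the dimmest 25% of clones, a trended robust prior, array weights, age as a covariate, the brightest clone per gene, adjustment over named genes, the array sets as a block, and leaving out each animal. Python 3.11.15 with matplotlib 3.10.9 drew the figures.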

Additional observations from a re-analysis of the deposited data

How the results depend on the processing

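No paired analysis was possible because pregnant and control animals are different animals and share no number, and the 2 genes have clones on the 18KB array only. The log2 fold change of LGALS9 kept its direction and passed under every alternative run. That of LGALS3BP kept its direction and passed under each except equal column medians (0.78), quantile normalization (0.81), in the gene table and in the table of clones alike, and the omission of pregnant 426 (1.46); a median shift of the columns is part of the construction of the first 2, and the cause of the third was not tested. Without 1 animal the values ran from 1.74 to 2.17 for LGALS9, from 1.40 to 1.86 for LGALS3BP, from 0.11 to 0.53 for their difference, from -0.73 to -0.47 for LGALS9 minus the 28 other genes and from -1.04 to -0.78 for LGALS3BP minus these genes. With a pseudocount LGALS9 minus the 28 genes was -0.33 and LGALS3BP minus these genes was -0.66, and the cause was not tested.

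Counts moved more. As deposited, 221 features were called higher and 9 lower (315 and 11 clones). Equal column medians gave 82 and 172 (152 and 174 clones), and quantile normalization 102 and 137 (178 and 139 clones). With 1 factor per animal there were 151 higher and 23 lower (238 and 27 clones). The share of called clones that were higher was 96.6% as deposited, 46.6% with equal medians, 56.2% after quantile normalization and 89.8% with 1 factor per animal. In the same order the median clone was at 0.44, -0.39, -0.26 and 0.19. Lower calls were 5 (6 clones) with age as a covariate and 21 (23 clones) with the array sets as a block. Adjusting over the 86 named genes alone called 69 of them higher, against 67 of them with adjustment over all 1420 features. At an adjusted p under 0.05 with no minimum fold there were 434 higher and 45 lower (547 and 51 clones). Leaving out 1 animal gave 169 to 243 features higher and 3 to 11 lower, and 253 to 336 clones higher and 4 to 14 lower. Precision is limited by there being 10 animals, and background intensities are not used here.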
